A study of Rattus norvegicus with 34 samples.

Results

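Gene expression in whole rat embryos on gestational day 12 was compared with expression in the liver of the mothers on the same day, without any test compound. The values are the vehicle channel (Cy3, the green dye) of the 12 arrays that share one array number, called set A here, out of 34 arrays in the series. They hold 6 arrays of whole embryo and 6 of maternal liver. All RNA came from Wistar rats in the vehicle arm of a study of EMD 82571, a calcium sensitizer, and retinoic acid. On each array the Cy5 (red) channel held RNA of the same tissue from treated animals, and it was not used for the values below. In each tissue the Cy5 partner was EMD 82571 at 50 mg/kg/day on 2 arrays, at 150 mg/kg/day on 2, and retinoic acid on 2. The protocol gives gestational days 6 to 11 and 6 to 17 as dosing windows, of which the second runs past day 12. It puts retinoic acid at 12 mg/kg/day, against 20 mg in the sample labels. The day of the vehicle RNA is taken from the label of its Cy5 partner. The labels do not give the vehicle itself, nor the age of the animals, nor whether arrays of a tissue carry RNA of separate animals, of pools or of one extract hybridised again. The series text names 5 control replicates, fewer than the 6 arrays of each tissue. Errors and p-values therefore measure the spread between arrays, which may be technical.

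The arrays were small spotted cDNA arrays with 238 gene probes, many of them for drug-metabolising enzymes, matrix proteins, growth factors, developmental regulators and stress proteins. Background-corrected intensities were put on a log2 scale and normalised between the 12 arrays, so a difference of 1 is a factor of 2. A probe was tested if it lay above local background on at least 3 of the 6 arrays of a tissue, which 228 did. Differences are embryo minus maternal liver with their standard error, and p-values are two-sided from limma, adjusted by Benjamini-Hochberg over the 228 probes with a threshold of 0.05. Median signal over background ranged from 2.03 to 2.72 on embryo arrays, with a median of 2.33, and from 2.23 to 3.66 on liver arrays, with a median of 2.59. This difference had p = 0.19 by an exact two-sided permutation test, where 0.00216 is the smallest possible. Liver array 6 stood apart: it correlated with the other liver arrays with a mean r of 0.979 across probes, against 0.991 to 0.993 for the other 5. Embryo array 2 stood apart likewise, with a mean r of 0.978 with the other embryo arrays, against 0.986 to 0.990 for those, and the lowest share of probes above background (68.9%). Without liver array 6, 200 probes passed, and without embryo array 2, 198 did. Differences at genes where either array lay far from the others of its tissue are also given without it, in the text or in the closing observations. In bulk RNA such as this, fewer cells of a type and less RNA per cell cannot be told apart.

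The day-12 rat embryo is in the middle of organ formation. Its limb buds, branchial arches, somites and neural tube are growing by rapid cell division, cartilage begins to condense, and its own liver is a small bud. The maternal liver is a mature organ whose hepatocytes secrete plasma proteins, make bile acids and clear foreign compounds through cytochrome P450 enzymes (phase I, oxidation) and conjugating enzymes (phase II, transfer of sugar, sulfate or acetyl groups).

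The tissues differed at most of the probes. Of 228 tested probes, 199 passed the threshold (87.3%), 106 of them higher in the embryo (46.5%) and 93 lower (40.8%). At 172 probes (75.4%) the probe passed and the 6 embryo arrays did not overlap the 6 liver arrays, 96 of them higher in the embryo (42.1%) and 76 lower (33.3%). Differences of at least 4 log2 units were found at 4 probes higher in the embryo and at 17 lower. The median difference over all tested probes was 0.10, and the median SD of a probe was 0.20 among embryo arrays and 0.15 among liver arrays. With so large a share past the threshold, a gene list is read below by its size and direction rather than by how many of its members passed.

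The labelled tissues were checked against markers. All 7 hepatocyte markers on the array, A2m, Cyp2e1, Cyp3a18, Cyp7a1, Foxa3, Hnf4a and Serpina1, were lower in the embryo. Their summed intensity was 1150 to 1304 on embryo arrays against 53982 to 68717 on liver arrays. The markers of dividing cells (Top2a), of neural tissue (Fzd3 and L1cam) and 3 of 4 of cartilage were higher in the embryo. The remaining cartilage marker, Acan, was lower. No marker of red blood cells or of muscle was among the probes, so their share in either tissue was not measured. Of the leukocyte markers, Itgal and Itgb2 were lower in the embryo, while Csf2 and Csf3 were not above background on enough arrays of either tissue to be tested. The leukocyte sum was 348 to 414 in embryo and 1146 to 1197 in liver. This sum includes the dim Csf2 and Csf3 and, like the other sums, an offset of 50 added to each intensity. Its ratio between tissues is therefore not a ratio of leukocytes. All 4 endothelial markers, Flt1, Flt4, Kdr and Pecam1, were lower in the embryo, with sums of 1119 to 1259 in embryo and 1513 to 1804 in liver, although none of the 4 passed in set B, a further 4 day-12 arrays. Flt4 lost its call without embryo array 1, 3, 4 or 5 and without liver array 3, 5 or 6 (-0.25 to -0.21). With arrays scaled to the added control RNA, Flt1 (-0.13), Pecam1 (-0.27) and Flt4 (0.01, against -0.25) did not pass either.

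**Figure D1:**
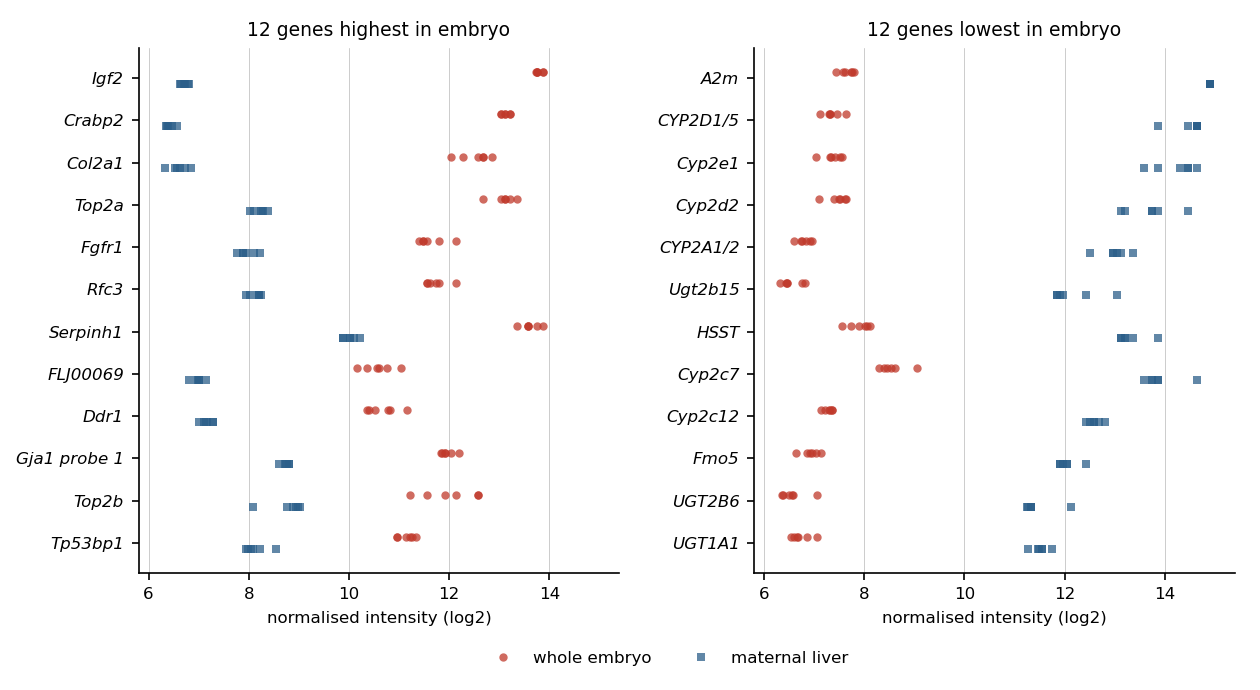
Normalised log2 intensity on each array for the 12 genes highest and the 12 lowest in the embryo (red circles, 6 whole embryo arrays; blue squares, 6 maternal liver arrays). At each of these 24 genes the 2 groups of points are apart, by 7.07 log2 units on average for Igf2 and by -7.25 for A2m.

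Of all tested genes, Igf2 was the highest in the embryo relative to the liver. It encodes insulin-like growth factor 2, the main growth factor of its family before birth. Its intensity was 13.74 at the lowest, 13.75 at the median and 13.87 at the highest on embryo arrays, against 6.62, 6.72 and 6.80 on liver arrays. The embryo was higher by 7.07 ± 0.08 log2 units, a 134-fold difference (adjusted p = 1.18e-21), and the Igf2 probe cleared background on 4 of the 6 liver arrays. Igf1, the growth factor that the adult liver releases under growth hormone, went the other way. It read 8.97, 9.81 and 10.10 (lowest, median, highest) in embryo and 11.56, 12.69 and 12.86 in liver. The groups did not overlap, and Igf1 was lower in the embryo by -2.81 ± 0.21 (adjusted p = 6.29e-10), or -2.98 without liver array 6, the lowest liver value. Igf1r, the receptor that binds both ligands, was higher in the embryo by 2.25 ± 0.12 (adjusted p = 3.89e-12), with 9.23 to 9.57 in embryo against 6.84 to 7.61 in liver.

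Genes of plasma protease inhibition had the lowest list median, -4.73, against -4.11 for the 17 tested phase I genes. The list holds only 3 genes, A2m, Serpina1 and the receptor Lrp1, so its median is the Serpina1 value. A2m encodes alpha-2-macroglobulin, an acute-phase protease inhibitor of the rat. It read 7.44, 7.68 and 7.80 in embryo and 14.90 on every liver array, where it was the brightest probe. Normalisation gives the brightest probe the same value on each array, so its liver SD of 0 is set by the method. The difference was -7.25 ± 0.08, a 152-fold lower level in the embryo (adjusted p = 1.34e-21), and -7.53 without normalisation between arrays. Serpina1, alpha-1-antitrypsin, was lower in the embryo by -4.73 ± 0.12 (adjusted p = 8.63e-17), with 7.80 to 8.49 in embryo and 12.68 to 13.21 in liver. Lrp1, the endocytic receptor that clears A2m complexes, differed less, by -1.64 ± 0.19 (adjusted p = 1.85e-07), and by -1.82 without liver array 6. Lrp1 read 10.59 to 11.03 in embryo and 11.40 to 12.80 in liver.

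Transcription factors of the hepatocyte were lower in the embryo too. Of 6 tested members, 5 were lower in the embryo and Cebpg did not pass, with a list median of -2.37 against 0.10 over all probes. Hnf4a, a nuclear receptor central to hepatocyte gene expression, read 7.48, 7.73 and 7.75 in embryo and 10.52, 11.73 and 11.80 in liver. Its difference was -3.86 ± 0.18 (adjusted p = 4.34e-13), and -4.06 without liver array 6, which gave the lowest liver value. Cebpb, a leucine zipper factor of the acute-phase response, read 8.29, 8.47 and 8.95 in embryo against 11.62, 11.80 and 12.28 in liver, a difference of -3.31 ± 0.13 (adjusted p = 5.22e-14). The FoxA factors, which open liver enhancers and also act in the endoderm of the embryo, differed by -2.06 ± 0.08 (Foxa1), -2.34 ± 0.09 (Foxa2) and -2.39 ± 0.11 (Foxa3), each without overlap between tissues. Foxa3 was above background on 4 of 6 embryo arrays, Foxa1 on 5 and Foxa2 on all 6. Cebpg, a broadly expressed partner of this family, had 8.90 to 9.91 in embryo and 9.30 to 10.17 in liver, a difference of -0.37 ± 0.18 (adjusted p = 0.0646).

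**Figure D2:**
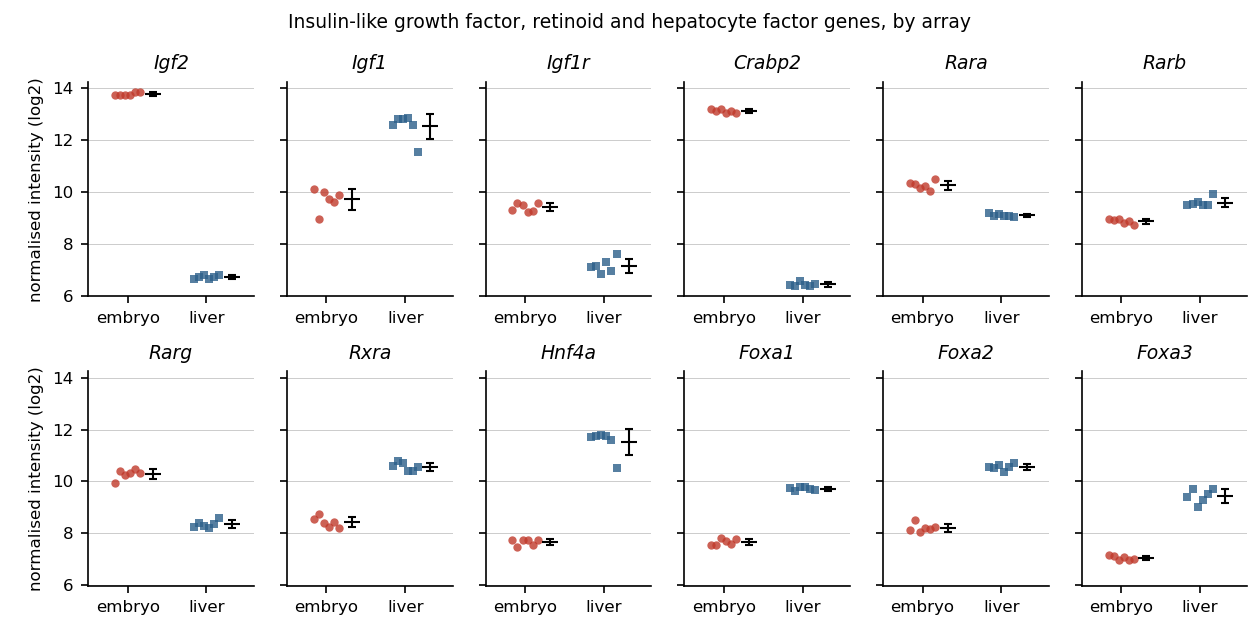
Normalised log2 intensity of 12 genes on each array, with whole embryo (red circles, 6 arrays) left of maternal liver (blue squares, 6 arrays), and the mean ± SD in black beside each group. Igf2, Igf1r, Crabp2, Rara and Rarg are higher in the embryo; Igf1, Rarb, Rxra, Hnf4a, Foxa1, Foxa2 and Foxa3 are lower, and liver array 6 is the lowest liver point for Igf1 (11.56) and Hnf4a (10.52).

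Cytochrome P450 and other phase I genes made up much of the low end. Of 17 tested members, 15 were lower in the embryo, Cyp1b1 was higher and Cyp1a1 did not pass, and the list median was -4.11. Cyp2e1, which oxidises ethanol and small solvents, read 7.04, 7.38 and 7.55 in embryo and 13.58, 14.39 and 14.64 in liver. It was lower in the embryo by -6.86 ± 0.16, or 116-fold (adjusted p = 2.65e-17). The probe for Cyp2d1 and Cyp2d5, listed as CYP2D1/5, differed by -7.13 ± 0.13, or 140-fold (adjusted p = 1.75e-18), and the related Cyp2d2 by -6.24 ± 0.18. CYP2A1/2, a probe of steroid-hydroxylating enzymes, differed by -6.20 ± 0.12, with 6.60 to 6.95 in embryo against 12.51 to 13.36 in liver, and was above background on 3 of 6 embryo arrays. Fmo5, a flavin-containing monooxygenase, differed by -5.12 ± 0.11 (adjusted p = 9.31e-18). Members of a Cyp2 or Cyp3 subfamily are related in sequence, so cDNA probes may bind each other's RNA and the values of single members are uncertain.

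Members of the Cyp2c and Cyp3a subfamilies differed between the tissues by very unequal amounts. In rats Cyp2c12 is the isoform of adult female liver, whereas Cyp2c11, Cyp2c13 and Cyp3a2 are among those of the adult male. Cyp2c12 read 7.13, 7.31 and 7.36 in embryo and 12.42, 12.58 and 12.80 in the liver of the dams. This was a difference of -5.31 ± 0.09 (adjusted p = 2.76e-19). The differences of Cyp2c11 and Cyp2c13 were small. Cyp2c11 had 6.43 to 7.00 in embryo and 6.81 to 7.46 in liver (-0.49 ± 0.12, adjusted p = 0.000818). The groups overlapped, and the call was lost when arrays were scaled to the added control RNA. Cyp2c13 was not above background on any embryo array and was at least 1.55-fold lower in the embryo, with 6.33 to 6.50 there against 7.07 to 7.65 in liver (adjusted p = 9.28e-08). Such a bound sets the brighter tissue against, on each dim array, the dimmest probe above background or the gene's own signal if higher. Cyp3a2 was not tested, since it cleared background on too few arrays, with 6.35 to 6.81 in embryo and 6.56 to 6.93 in liver. Cyp2c7, by contrast, differed by -5.36 ± 0.16 (-5.15 without liver array 6), and Cyp3a9 by -4.58 ± 0.12 (adjusted p = 6.41e-16). Cyp3a18 differed by -2.41 in set A, and by -0.41 without passing in set B. Cyp3a23-3a1, which is induced through the pregnane X receptor, had a difference of -4.11 ± 0.16 (adjusted p = 3.31e-14), with 6.46 to 7.46 in embryo and 10.49 to 11.21 in liver.

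Some phase I genes departed from this pattern. Cyp1b1, which metabolises oestrogens and retinoids in extrahepatic and embryonic tissues, read 8.83, 9.09 and 9.20 in embryo and 6.72, 6.84 and 6.97 in liver. It was the one phase I gene higher in the embryo, by 2.21 ± 0.09 (adjusted p = 5.8e-14). Cyp1a1, the classic target of the aryl hydrocarbon receptor, had 6.53 to 7.17 in embryo and 6.68 to 6.86 in liver (0.02 ± 0.10, adjusted p = 0.885). CYP2B1/2, the phenobarbital-inducible pair, was low in both tissues, with 6.17 to 6.79 in embryo and 6.91 to 7.22 in liver. Its difference was -0.57 ± 0.10 (adjusted p = 5.8e-05), and it missed the threshold when arrays were scaled to the added control RNA (-0.35, adjusted p = 0.131).

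Among bile acid and steroid P450 genes, Cyp7a1 stood out. Its product starts the conversion of cholesterol to bile acids, and the gene is a marker of the mature hepatocyte. Cyp7a1 read 6.54, 7.09 and 7.28 in embryo and 9.57, 10.38 and 10.52 in liver. It differed by -3.25 ± 0.16 (adjusted p = 9.94e-13), and by -3.42 without liver array 6. The steroid-forming enzymes were dim. Cyp17a1, needed for androgens and cortisol-type steroids, was lower in the embryo by -0.77 ± 0.12 (adjusted p = 1.12e-05) and CYP21A2 by -0.31 ± 0.10 (adjusted p = 0.00846), with overlapping groups for the second. The call of CYP21A2 was lost with arrays scaled to the added control RNA, with the median of the spots of a probe and with dim spots left out. Cyp11a1 and Cyp19a1, the side-chain cleavage enzyme and aromatase, had differences of 0.06 ± 0.12 and 0.01 ± 0.11 and did not pass.

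Phase II genes were lower in the embryo for 15 of 18 tested members, with none higher and a list median of -1.99. Ugt2b15, a glucuronosyltransferase that conjugates steroids, read 6.33, 6.46 and 6.82 in embryo and 11.85, 11.94 and 13.04 in liver. Its difference was -5.63 ± 0.18 (adjusted p = 2.16e-15), and it was above background on 1 of 6 embryo arrays. UGT1A1, the bilirubin-conjugating isoform, had 6.53 to 7.05 in embryo and 11.27 to 11.74 in liver, a difference of -4.79 ± 0.10 (adjusted p = 1.57e-17). The UGT1 probes ranged widely. UGT1A5 differed by -3.57 ± 0.09 and UGT1A7 by -1.49 ± 0.12, while UGT1A3 did not pass (0.03 ± 0.14). UGT1A isoforms share their last exons, and the sequences of these probes were not used here, so their values may overlap. The sulfotransferase probe listed as HSST differed by -5.42 ± 0.13 (-5.28 without liver array 6) and Sult1b1, which sulfates thyroid hormones, by -3.96 ± 0.10. Of the acetyltransferases, Nat1 was lower in the embryo by -1.98 ± 0.09 and Nat2 did not pass (-0.04 ± 0.10).

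The promoters of several of these genes are shown for the motifs of hepatocyte factors in them, since Hnf4a and Cebpb belong to the same contrast. Sequences were matched by symbol in RefSeq on GRCr8, which gave promoters for 160 of the measured genes, 80 higher and 53 lower in the embryo. In the 250 bases before each start, on both strands, motifs were searched for HNF1 (GTTAAT, any base, ATTAAC, with up to 2 mismatches over the whole), HNF4 (CAAAGTCCA), C/EBP (TTNNGCAA), the TATA box (TATAAA) and the CCAAT box (CCAAT). The 140 bases before the start follow 5′ to 3′, with the match in capitals. In Hnf4a and Cyp2e1 the capitals mark the HNF1 match, from 71 to 59 and from 130 to 118 bases before the start, each with 2 mismatches.
Hnf4a, chr3:172606080-172606219, plus strand: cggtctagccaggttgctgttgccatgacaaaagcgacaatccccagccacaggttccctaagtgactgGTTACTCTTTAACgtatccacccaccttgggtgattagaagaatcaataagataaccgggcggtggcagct
Cyp2e1, chr1:205269827-205269966, plus strand: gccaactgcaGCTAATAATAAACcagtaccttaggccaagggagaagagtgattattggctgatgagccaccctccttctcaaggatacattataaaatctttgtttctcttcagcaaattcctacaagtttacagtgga

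For 3 of the Ugt2b genes lower in the embryo, the capitals mark a C/EBP match, at 75 to 68 (Ugt2b), 79 to 72 (Ugt2b15) and 88 to 81 bases (Ugt2b35) before the start. The match lies within a run of 31 bases identical in the 3 genes, a run found in 4 of the 27457 promoters of the table. A C/EBP match also lies in the promoter of Igf2, the gene highest in the embryo, at 24 to 17 bases before the start. Another lies unmarked in the Cyp2e1 promoter above, at 30 to 23 bases.
Ugt2b, chr14:20985309-20985448, plus strand: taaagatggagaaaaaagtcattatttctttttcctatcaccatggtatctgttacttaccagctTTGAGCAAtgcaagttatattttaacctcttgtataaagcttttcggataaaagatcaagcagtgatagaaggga
Ugt2b15, chr14:21122726-21122865, plus strand: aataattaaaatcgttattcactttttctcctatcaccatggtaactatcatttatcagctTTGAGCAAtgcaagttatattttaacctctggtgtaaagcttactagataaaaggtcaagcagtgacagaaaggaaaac
Ugt2b35, chr14:21208301-21208440, plus strand: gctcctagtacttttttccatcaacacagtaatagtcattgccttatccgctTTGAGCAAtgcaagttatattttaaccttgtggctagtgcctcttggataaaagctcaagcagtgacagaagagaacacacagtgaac

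The promoter of Top2a, a cell division gene higher in the embryo, has the CCAAT box on the opposite strand (ATTGG, in capitals) at 57 to 53 bases before the start. The same letters lie unmarked in the Cyp2e1 promoter above, at 86 to 82 bases before the start.
Top2a, chr10:84473094-84473233, minus strand: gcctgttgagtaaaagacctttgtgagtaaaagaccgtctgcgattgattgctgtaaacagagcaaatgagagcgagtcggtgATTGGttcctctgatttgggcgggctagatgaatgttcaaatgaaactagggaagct

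The motif shares were small. The HNF1 motif was in 2 of 53 promoters of genes lower in the embryo (3.77%), in 0 of 80 of genes higher, and in 1.12% of all promoters. The C/EBP motif was in 9 of 53 (17.0%), in 6 of 80 (7.5%) and in 9.20% of all, and the TATA box in 14 of 53 (26.4%), in 9 of 80 (11.25%) and in 13.1% of all. The CCAAT box was in 32.1% of promoters of genes lower, 30% of genes higher and 34.3% of all, and the HNF4 motif in 0 of either group. Among 21 promoters of genes that did not pass, the C/EBP motif was in 3 (14.3%), the TATA box in 4 (19.0%) and the CCAAT box in 9 (42.9%). The HNF1 and HNF4 motifs were in 0 of those 21. These are descriptions of letters in a window, with no test, and related genes such as Ugt2b15 and Ugt2b35 share their sequence.

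Retinoid genes split between the tissues. Crabp2 encodes a cytoplasmic protein that carries retinoic acid to its nuclear receptors. It read 13.04, 13.13 and 13.21 in embryo and 6.35, 6.41 and 6.57 in liver, where 1 of 6 arrays was above background. The embryo was higher by 6.70 ± 0.08 (adjusted p = 1.48e-21), and by 4.87 in set B. With a single liver array above background, no fold is given for Crabp2. The receptors themselves went both ways. Rarg was higher in the embryo by 1.94 ± 0.10 (9.94 to 10.49 in embryo, 8.22 to 8.61 in liver) and Rara by 1.17 ± 0.09 (10.02 to 10.52 in embryo, 9.03 to 9.17 in liver). Rarb was lower in the embryo by -0.71 ± 0.09 (8.73 to 8.97 in embryo, 9.48 to 9.91 in liver), and so was their common partner Rxra, by -2.14 ± 0.10 (8.22 to 8.73 in embryo, 10.41 to 10.78 in liver). None of these 4 receptors overlapped between tissues. The fatty acid receptors were lower in the embryo: Ppard by -1.63 ± 0.13, Pparg by -0.81 ± 0.10 (-0.04 and not called in set B) and Ppara, which drives fatty acid oxidation, by -2.98 ± 0.09 with one probe and -1.44 ± 0.10 with the other. The probes of Ppara thus had the same direction and different sizes.

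**Figure D3:**
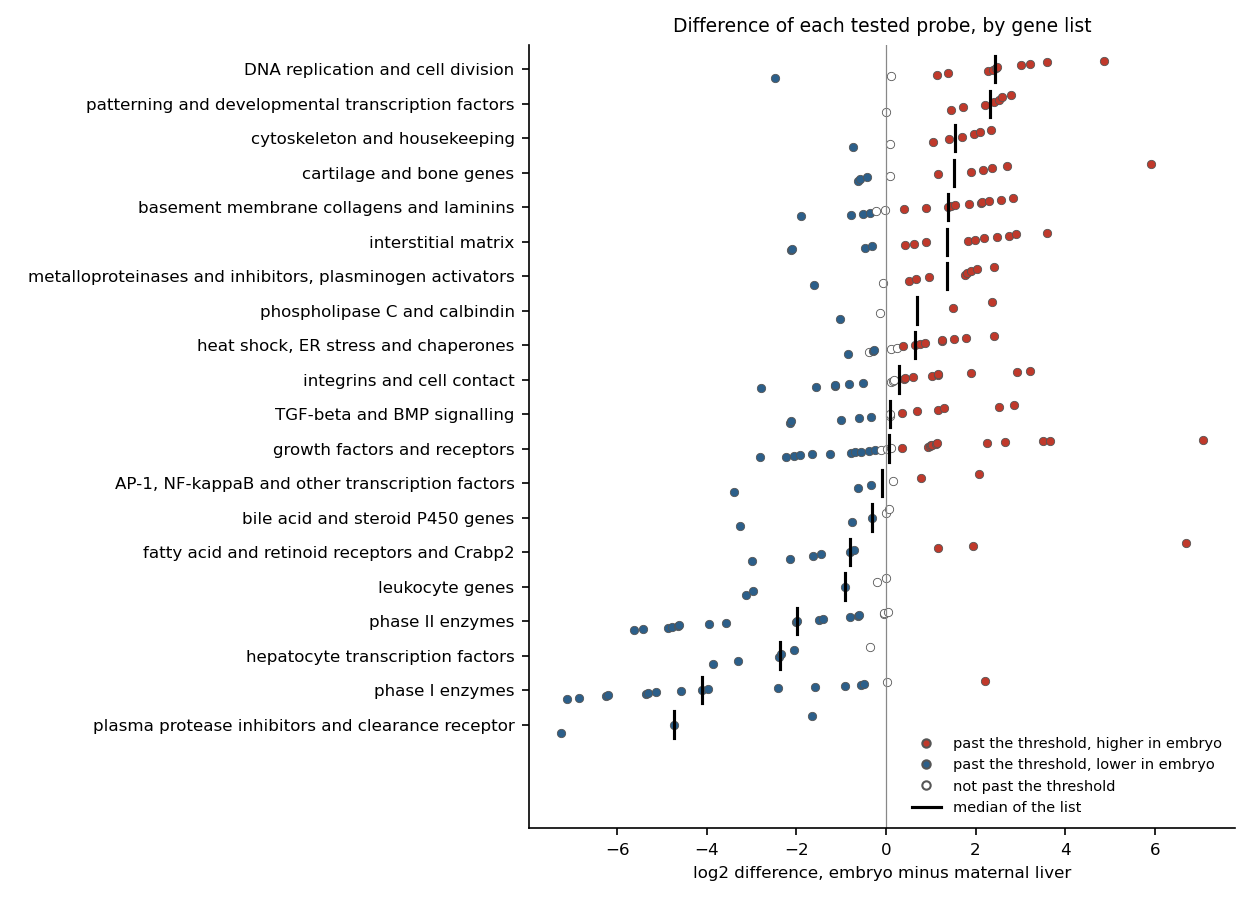
Log2 difference, embryo minus maternal liver, of each tested probe in 20 gene lists (filled red, past the threshold and higher in embryo; filled blue, past the threshold and lower; open, not past it), with the list median as a black bar. The lists run from a median of 2.43 for DNA replication and cell division to -4.73 for plasma protease inhibitors and their clearance receptor.

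DNA replication and cell division genes were the most embryo-weighted list, with 10 of 12 tested members higher, 1 lower and a median of 2.43. Top2a, the topoisomerase of dividing cells whose promoter is shown above, read 12.68, 13.12 and 13.36 in embryo and 8.02, 8.26 and 8.38 in liver. It was higher in the embryo by 4.87 ± 0.11, or 29.3-fold (adjusted p = 1.77e-17). Rfc3, a subunit of the clamp loader at the replication fork, was higher by 3.60 ± 0.11, and its partners Rfc2 and Rfc5 by 2.40 ± 0.20 and 2.48 ± 0.13. Fen1, the flap nuclease that trims Okazaki fragments, was higher by 2.45 ± 0.21 and Pold1, the catalytic subunit of DNA polymerase delta, by 2.28 ± 0.16. The exception was Pold3, an accessory subunit of the same polymerase. It read 7.88, 7.94 and 8.38 in embryo and 10.29, 10.49 and 10.63 in liver, and was lower in the embryo by -2.47 ± 0.10 (adjusted p = 9.29e-14).

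Not every member of this list is tied to division. Gadd45a, a gene of growth arrest and DNA damage, was measured on all 12 arrays at 10.05 to 10.56 in embryo and 9.98 to 10.25 in liver, and did not pass (0.10 ± 0.10, adjusted p = 0.339). Top2b, the topoisomerase that acts outside division, was higher in the embryo by 3.21 ± 0.22, with 11.21 to 12.58 in embryo and 8.09 to 9.03 in liver.

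Cartilage genes were another group higher in the embryo. Of 10 tested cartilage and bone genes, 6 were higher in the embryo, 3 lower and Runx2 did not pass, with a median of 1.53. Col2a1, the main collagen of cartilage, read 12.04, 12.63 and 12.86 in embryo and 6.33, 6.60 and 6.84 in liver. It was higher in the embryo by 5.92 ± 0.13, or 60.4-fold (adjusted p = 1.72e-17), and 3 of 6 liver arrays were above background. Its position was found through the probe number; read at the grid position that another array set lists for Col2a1, the difference was 5.24. The fibril partners of type II collagen were higher too, Col9a1 by 2.17 ± 0.15, Col9a3 by 2.70 ± 0.12 and Col11a1 by 2.38 ± 0.09. Hapln1, the link protein that ties aggrecan to hyaluronan, was higher by 1.89 ± 0.10. Acan, aggrecan itself, was near the floor, at 6.28 to 6.83 in embryo and 6.82 to 7.36 in liver (-0.58 ± 0.12, adjusted p = 0.000203). Its groups overlapped, and the call was lost when arrays were scaled to the added control RNA. Runx2, the regulator of bone formation, had 6.81 to 7.25 in embryo and 6.70 to 7.00 in liver (0.10 ± 0.10, adjusted p = 0.339).

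Other matrix genes were mostly higher in the embryo. Of 14 interstitial matrix probes 10 were higher and 4 lower (median 1.37), and of 17 basement membrane probes 11 were higher and 4 lower (median 1.39). Serpinh1, the collagen chaperone Hsp47, was higher by 3.60 ± 0.10, with 13.36 to 13.87 in embryo and 9.88 to 10.22 in liver (adjusted p = 2.68e-16). Fn1, fibronectin, was higher by 2.90 ± 0.11 with a probe listed as EIIIA. Whether that probe reads all fibronectin transcripts was not tested. Tnc, the tenascin of migrating cells and condensing mesenchyme, was higher by 2.49 ± 0.08 and Col1a2 by 1.99 ± 0.15. Col4a1 and Col4a2, the paired chains of basement membrane collagen, were higher by 2.14 ± 0.14 and 1.86 ± 0.10. Laminin chains differed in direction: Lama1 and Lama5 were higher by 2.12 ± 0.10 and 2.57 ± 0.12, and Lama3, an epithelial chain, was lower by -1.90 ± 0.10. Bgn and Col14a1 were among the matrix genes lower in the embryo, by -2.12 ± 0.12 and -2.10 ± 0.11. Dcn, decorin, was lower by -0.47 ± 0.10, with overlapping groups. It missed the threshold when arrays were scaled to the added control RNA and in the Cy5 channel.

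Proteases that remodel matrix and their inhibitors were higher in 8 of 10 tested members (median 1.36). Mmp2, a gelatinase, was higher by 1.76 ± 0.12, Mmp24 by 2.03 ± 0.10 and the inhibitor Timp1 by 1.91 ± 0.13. The plasminogen activators diverged. Plat, the tissue type, was higher by 2.41 ± 0.15 (9.75 to 10.78 in embryo, 7.69 to 8.23 in liver), and Plau, the urokinase type, was lower by -1.62 ± 0.13 (6.72 to 7.26 in embryo, 8.18 to 8.97 in liver). Mmp9, Mmp10 and Mmp13 cleared background on too few arrays to be tested.

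Patterning genes were higher in 7 of 8 tested members, with none lower and a median of 2.32. Hoxa2, which patterns the second branchial arch and the hindbrain, read 9.29, 9.73 and 10.25 in embryo and 6.75, 6.94 and 7.08 in liver (2.80 ± 0.13, adjusted p = 5.88e-13). Pax3, a factor of the dorsal neural tube, neural crest and somites, was higher by 2.60 ± 0.19. Foxc2, a factor of paraxial mesoderm, was not above background on any liver array and was at least 4.31-fold higher in the embryo, with 8.51 to 8.86 there (adjusted p = 9.66e-15). Fzd3, a Wnt receptor of axon guidance, was higher by 2.52 ± 0.14, and Tcf4, an E-protein, by 2.22 ± 0.11. Nr6a1, the germ cell nuclear factor, was the member that did not pass, with 7.39 to 7.86 in embryo and 7.20 to 7.86 in liver (0.00 ± 0.11, adjusted p = 0.979), though it was higher in the embryo in set B (0.72, adjusted p = 0.0234).

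Signalling ligands and receptors were divided. Of 26 growth factor and receptor probes, 12 were higher and 11 lower in the embryo, with a median of 0.07, close to the 0.10 of all probes. Fgfr1, the fibroblast growth factor receptor of mesenchyme, read 11.40, 11.52 and 12.13 in embryo and 7.77, 7.92 and 8.22 in liver (3.67 ± 0.12, adjusted p = 5.58e-15). Fgfr2 was at 8.90 to 9.63 in embryo and 8.88 to 9.57 in liver and did not pass (0.02 ± 0.14, adjusted p = 0.873). Ddr1, a collagen-binding receptor kinase, was higher by 3.50 ± 0.12 and Pdgfa by 2.66 ± 0.11. The hepatocyte growth receptors were lower in the embryo: Egfr by -2.24 ± 0.10 with its ligand Egf by -2.05 ± 0.08, and Met by -1.92 ± 0.12 with its ligand Hgf by -0.70 ± 0.10. Vegfa, the endothelial growth factor, was lower by -1.65 ± 0.12 in this channel, and its difference in the Cy5 channel was -0.70 (adjusted p = 0.137).

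TGF-beta and BMP genes were split in the same way, 6 higher and 5 lower of 13 tested, with a median of 0.09. Bmp4, a morphogen of mesoderm and limb, read 9.48, 9.59 and 10.13 in embryo and 6.72, 6.80 and 6.96 in liver (2.85 ± 0.11, adjusted p = 2.61e-14). Tgfb2 was higher by 2.53 ± 0.12, and Bmp3 was at least 1.48-fold higher, since no liver array had it above background (adjusted p = 1.65e-07, a call lost without normalisation between arrays). Gdf2, also known as BMP9 and made in adult liver, was lower in the embryo by -2.13 ± 0.12 (6.48 to 7.20 in embryo, 8.71 to 9.20 in liver). The receptors diverged: Tgfbr1 was higher by 1.16 ± 0.12 and Tgfbr2 lower by -2.14 ± 0.11. Tgfb3 and Bmp5 had differences of 0.09 ± 0.09 and 0.09 ± 0.10 and did not pass.

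Cell contact genes included the gap junction protein connexin 43, Gja1, which was higher in the embryo with both of its probes, by 3.22 ± 0.09 and 2.93 ± 0.13. L1cam, the neural adhesion molecule, was higher by 1.90 ± 0.09, with 8.35 to 8.55 in embryo and 6.33 to 6.72 in liver. Sdc2, a heparan sulfate proteoglycan of liver, was lower by -2.79 ± 0.13 (9.10 to 9.28 in embryo, 11.34 to 12.28 in liver), and the epithelial cadherin Cdh1 by -1.55 ± 0.15 (-0.51 and not called in set B). Leukocyte genes were lower or not called: Itgb2, the common chain of leukocyte integrins, by -2.98 ± 0.09, Itgal by -0.91 ± 0.10 and the Fc receptor probe listed as FCGR2C by -3.13 ± 0.15. The part of leukocytes in other differences was not tested.

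Chaperone and stress genes were higher in 9 of 15 members (median 0.64), but 6 of these 9 calls depended on scaling, and 8 of the 12 called members had the same direction in set B. Hsp90aa1 was higher by 2.41 ± 0.16 (0.44 and not called in set B), Hspa4 by 1.78 ± 0.14 and Atf6b, a factor of the unfolded protein response, by 1.52 ± 0.11. Hspa5 (0.38 ± 0.12), Hspa9 (0.76 ± 0.10) and Atf4 (0.87 ± 0.11) were higher in the embryo here, but without normalisation between arrays they read -0.85, -0.53 and -0.22. Hspa5 and Hspa9 were called lower in the embryo with median centring (-0.59 and -0.28) and with cyclic loess (-0.61 and -0.28). Hspa2, Hspa8 and Hsph1, also higher here, did not pass without normalisation (0.25, 0.43 and 0.49). Ddit3, the stress factor CHOP, did not pass with all arrays (-0.38 ± 0.20, adjusted p = 0.0847) and was lower in the embryo without liver array 6 (-0.62, adjusted p = 0.000138). With all arrays it was also called lower under median centring (-0.49), cyclic loess (-0.74) and no normalisation between arrays (-0.74), and with dim spots left out (-0.51). Among immediate-early factors, Junb was lower in the embryo by -3.40 ± 0.09, with 7.89 to 8.11 in embryo and 11.21 to 11.56 in liver (adjusted p = 2.05e-16), and Jun by -0.63 ± 0.12.

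Genes often used as references were not all equal. Gapdh, a glycolytic enzyme, read 14.31, 14.31 and 14.46 in embryo and 13.75, 14.31 and 14.46 in liver, and did not pass (0.09 ± 0.11, adjusted p = 0.434). Gapdh did pass in the Cy5 channel (0.36, adjusted p = 0.0402) and in set B (0.88, adjusted p = 0.0435), higher in the embryo in both. Actb was the brightest probe on each embryo array, where normalisation sets its SD to 0, and read 14.90 there against 13.58, 13.67 and 14.31 in liver. It was higher in the embryo by 1.05 ± 0.13 (adjusted p = 8.5e-07), but without normalisation between arrays the difference was 0.47 (adjusted p = 0.0702). The alpha-tubulin probe TUBA1 was higher by 2.34 ± 0.10, the smooth muscle actin Acta2 by 2.11 ± 0.19, the translation factor Eef1d by 1.96 ± 0.08 and the ribosomal protein gene Rps3 by 1.70 ± 0.10. Rps7 had the widest spread in both tissues, with 8.67 to 11.97 in embryo and 8.15 to 9.94 in liver (1.40 ± 0.40, adjusted p = 0.00322). The next widest in the embryo were Cyp2c6v1 and Itgb1. Cyp2c6v1, with a value on 5 embryo arrays, had 10.17 to 12.04 there and 12.28 to 12.58 in liver (-1.59 ± 0.24, adjusted p = 9.01e-06), and Itgb1, the common integrin chain, had 10.63 to 12.28 in embryo and 10.02 to 10.95 in liver. Itgb1 was higher in the embryo by 1.04 ± 0.22 (adjusted p = 0.000332), a call lost without normalisation between arrays (0.30).

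The same contrast was measured on 4 arrays with another array number, called set B, with 2 arrays of untreated day-12 embryo and 2 of maternal liver. The labels do not say whether their RNA came from the same animals. A probe was tested in set B if it lay above background on at least 1 array of a tissue, against 3 in set A. Counts and shares of the 2 sets therefore rest on unlike filters. In set B, 137 of 234 tested probes passed the threshold (58.5%), 80 higher in the embryo (34.2%) and 57 lower (24.4%). Of the 198 probes called in set A and tested in set B, 187 had the same direction, and 135 were called in both with the same direction. The 11 with the opposite direction did not pass in set B. With the day of quantification as a block, 124 probes passed in set B (53.0%), 69 higher in the embryo (29.5%) and 55 lower (23.5%). Igf2 differed by 6.89 in set B, A2m by -8.16, Col2a1 by 5.62, Top2a by 4.64, Hnf4a by -3.17 and Cyp7a1 by -3.01, each past the threshold. Among genes described above, CYP21A2, CYP2B1/2, Cyp2c11, Cyp2c13, Cyp3a18, Ppara probe 2, Pparg, Rarb, Col11a1, Hapln1, Acan, Dcn, Mmp2, Bmp3, Hgf, Flt1, Kdr, Cdh1, Itgal, Hsp90aa1, Hspa2 and Hspa4 had the same direction in set B without passing there. Atf4, Hspa5, Hspa9, Flt4 and Pecam1 had the opposite sign there and did not pass.

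**Figure D4:**
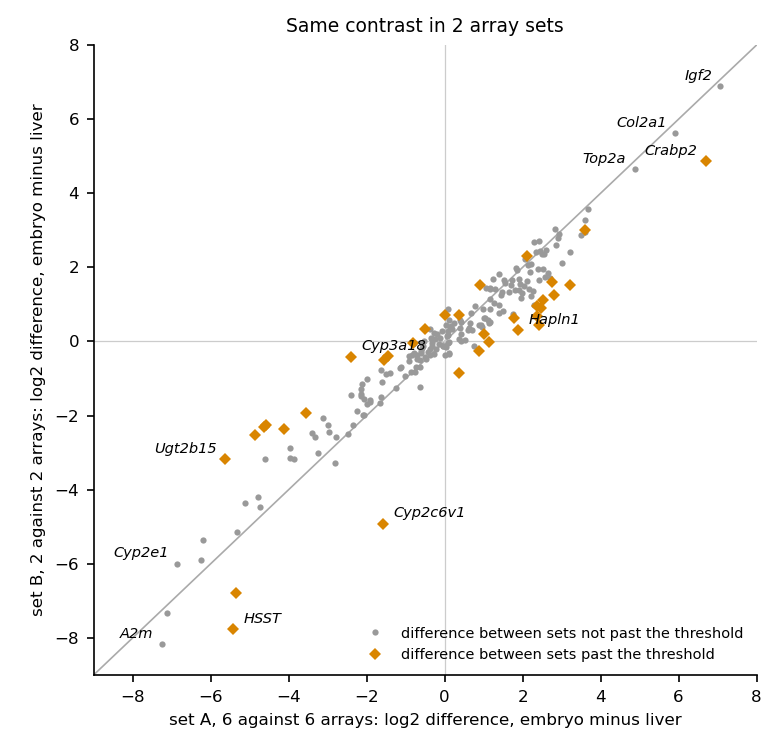
Log2 difference, embryo minus maternal liver, in set A (6 against 6 arrays, x axis) and in set B (2 against 2 arrays, y axis), one point per probe, with the line of equal values in grey. The axes show separate fits of each set. Orange diamonds mark the 34 probes whose difference between sets passed the threshold in a joint fit of both sets. Igf2 (7.07 and 6.89) lies close to the line, and Cyp2c6v1 (-1.59 and -4.91) far from it.

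The size of a difference was less stable than its direction. In a joint fit of the 16 arrays with an interaction of set and tissue, added after seeing the data, 34 of 228 probes differed between the sets (14.9%). Of these, 8 had the larger difference in set B by the separate fits of each set, which also give the paired values below. The interaction p-values belong to the joint fit, where set B minus set A was -3.69 for Cyp2c6v1 and -1.01 for Crabp2. Cyp2c6v1 moved most, with -1.59 in set A and -4.91 in set B (interaction adjusted p = 1.07e-05), followed by HSST with -5.42 and -7.77 (adjusted p = 7.46e-05). Hapln1 had 1.89 in set A and 0.30 in set B (adjusted p = 8.64e-05), and Cyp3a18 had -2.41 and -0.41 (adjusted p = 0.000565). Crabp2 was higher in the embryo in both sets, by 6.70 and 4.87 (interaction adjusted p = 0.00541). Ugt2b and UGT2B6 had -4.64 and -4.87 in set A and -2.30 and -2.51 in set B.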

How the data were processed

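Per the file headers, the deposited files hold for each spot and channel the mean intensity and local background that the authors quantified in ImaGene, neither subtracted nor normalised. Per the labels, vehicle RNA carried Cy3 and a control RNA (CR1) was added. The Cy3 intensity of the 12 arrays was corrected with normexp (offset 50) in limma 3.58.1 (R 4.3.3), put on the log2 scale, averaged over the 4 spots of a probe and quantile-normalised over 238 gene probes. The offset makes the folds of dim probes too small. Spots marked by hand or as uneven were left out. Spots marked dim were kept, although the plan was to use unmarked spots only; leaving them out is an alternative. A spot was above background if it exceeded it by 2 SD, a probe if at least a share of 0.5 of its spots did. Tissues were compared by lmFit and eBayes. Of the names, 186 matched a symbol in GRCr8, 23 a synonym and 5 a full name; 24 were kept as written, and 4 probes that sit elsewhere in the grid of another set were located through their probe number rather than their row and column. The number of arrays limits the precision. All 12 arrays were quantified on 1 day.

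The genes named are the 12 highest and lowest called genes without overlap, up to 4 with the smallest p of each list, the 6 with the smallest difference, the 3 with the largest spread per tissue and a fixed set. Others, such as Igf1r, Cyp1b1, Cyp2c11, Cyp2c13, Pax3, Acan, Runx2, Hspa5, Hspa9 and Atf4, were chosen after their values were seen. The genes and lists were chosen with earlier results of these data known. 1 gene of the fixed set is not reported here. The pipeline was tested on simulated data.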

Additional observations from a re-analysis of the deposited data

Results flagged for a closer look

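On 31 of 213 combinations of a named gene and a tissue (14.6%), 1 array lay far from the other 5 by Dixon's test at the 95% level. For independent normal values chance gives about 1 in 20. Quantile normalisation lets bright probes share rank values, so that rate need not hold here. Hspa8, for example, was flagged at 14.46 on embryo array 1 against 14.64 on the others. Liver array 6 accounts for 17 of the 31 combinations. It was high for HSST (13.87), Cyp2c7 (14.64), Fmo5 (12.42), UGT2B6 (12.13), Cebpb (12.28), Col4a2 (9.79), Col1a2 (8.50), Met (10.17) and Rarb (9.91). It was low for Top2b (8.09), Hnf4a (10.52), Lrp1 (11.40), Cyp7a1 (9.57), Gja1 probe 2 (8.38), Itgb1 (10.02), Ddit3 (7.04) and Igf1 (11.56). Liver array 3 was high for Gdf2 (9.20) and Plcd1 (7.59) and low for Gapdh (13.75), and liver array 4 was low for CYP2D1/5 (13.87). Embryo array 1 was high for UGT2B6 (7.07) and Foxc2 (8.86) and low for Fzd3 (8.38) and Hspa8 (14.46). Embryo array 2 was high for Bmp4 (10.13) and Pold3 (8.38) and low for Gja1 probe 2 (11.15), FCGR2C (6.52) and Atf2 (8.88), and embryo array 3 was low for Met (7.48). All values are normalised log2 intensities. Without liver array 6 the difference, embryo minus liver, was 3.05 for Top2b (3.21 with it), -3.20 for Cebpb (-3.31), -5.06 for Fmo5 (-5.12), -4.75 for UGT2B6 (-4.87), 1.92 for Col4a2 (1.86), 2.13 for Col1a2 (1.99), -1.87 for Met (-1.92), -0.64 for Rarb (-0.71), 2.83 for Gja1 probe 2 (2.93) and 0.88 for Itgb1 (1.04), with HSST, Cyp2c7, Hnf4a, Lrp1, Cyp7a1, Igf1 and Ddit3 given above. Of these 17 genes, Ddit3 changed its call without that array. Without embryo array 2 the difference was 2.79 for Bmp4 (2.85 with it), -2.56 for Pold3 (-2.47), 3.09 for Gja1 probe 2 (2.93), -3.06 for FCGR2C (-3.13) and 0.96 for Atf2 (0.78), and each kept its call.

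At 5 grid positions that the files list as empty, signal lay above background on at least 3 arrays of a tissue, with these embryo minus liver differences before normalisation between arrays. Row 10, column 15, which has a probe number of its own and no gene name, differed by -2.996. The positions at row 12, column 4 (0.0878), row 13, column 1 (-0.46), row 13, column 2 (0.74) and row 13, column 3 (4.42) carry the names Hsph1, Hspa1l, Lama4 and Col2a1 in another array set.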

How the results depend on the processing

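The count of 199 probes was recomputed under 32 alternatives. It was 196 to 200 with each array left out in turn, 180 to 206 under the 4 other scalings, and 114 (76 higher, 38 lower in the embryo) of 127 probes above background on all 12 arrays. In set B the 57 lower calls compare with 93 in set A, and its count of 137 was 88 to 109 with 1 array left out, the lowest without its second liver array. The scalings moved the median of all probes from 0.10 to between -0.26 and 0.25. Of the 199 called probes, 194 kept their sign under each scaling, the exceptions being Atf4, Flt4, Hspa5, Hspa9 and Ntrk3. Among uncalled genes, cyclic loess gave lower calls for Nr6a1 (-0.36), Fgfr2 (-0.35), Bmp5 (-0.23) and Tgfb3 (-0.27). It did so too for Ddit3 (-0.74), Calb1 (-0.40) and Itgb7 (-0.30). The cause was not tested. The 98 called genes named by rule stayed past the threshold in the same direction in 3078 of 3096 recomputed values. Many of them were picked for a large difference or small p in these data, so some of this stability was built in. The count leaves out genes chosen after their values were seen, such as Hspa5, Hspa9 and Atf4. The share of probes above background differed by -7.28 percentage points, embryo minus liver (exact permutation p = 0.121), and by -10.1 to -5 with 1 array left out, where omitting embryo array 4 gave p = 0.0216. Arrays with the same Cy5 partner had deviations that correlated with r from -0.55 to 0.20 over 6 pairs, and a block for the partner left the count at 199. A block for the quantification session could not be fitted for the 12 arrays, all from 1 day, and for set B it gave 124 calls. Slide order ran with tissue, so the slide and the tissue cannot be told apart. No paired analysis was possible because the labels give no number that ties an embryo array to a liver array.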
